A study of Homo sapiens with 4 samples.

Results

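Transcript levels of 10 genes of the endoplasmic reticulum (ER) were described in prostate cancer cells with a hairpin against MAOA. The product of MAOA, monoamine oxidase A, sits on mitochondria and breaks down serotonin and noradrenaline. The genes were taken by symbol from a list of ER folding and ER-associated degradation genes, and all 10 of 10 were found among the 25343 rows of each deposited table. They are HSPA5, HSP90B1, PDIA4, CALR, HYOU1, SDF2L1, DNAJB9, XBP1, HERPUD1 and SEL1L. All passed the filter on low values (in each table, an average over the pair of libraries of 1 CPM or more, CPM being the read count scaled to library size), so none was left out of the test. There was 1 library in each of 4 groups. C4-2B ENZR, an enzalutamide-resistant human prostate cancer line, was kept in 20 µM of the antiandrogen enzalutamide, and LNCaP, from which the C4-2 lineage derives, was grown without a stated drug. Both lines were grown with 10% fetal bovine serum. In each line 1 library came from cells with a non-targeting control hairpin and 1 from cells with a hairpin against the MAOA coding region. The hairpins were delivered by lentivirus and the infected cells selected with an antibiotic, so every group, controls included, had been infected and selected. The labels do not say whether both lines carried the same MAOA hairpin, and the library descriptions write its name differently in each line.

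The ER folds secreted and membrane proteins. When unfolded proteins gather there, the sensors IRE1, PERK and ATF6 start the unfolded protein response. IRE1 splices XBP1 mRNA, and spliced XBP1 and cleaved ATF6 switch on chaperone and degradation genes, while PERK slows translation and favours ATF4, the transcription factor that is also raised by amino acid shortage. Prostate luminal cells secrete large amounts of protein, and XBP1 is abundant in them. Many ER chaperone promoters carry an ER stress response element (ERSE), a CCAAT box and a CCACG box that are bound by NF-Y and by ATF6 or XBP1.

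The promoters are shown because these elements are what the genes are known to share. The members had been listed by function, not by promoter, and with earlier results of these data known. RefSeq promoter sequences (GRCh38.p14, the 250 bases before each annotated start) were found for all 10 genes, with 12 starts in all, and were searched on both strands. ERSE was searched as CCAAT and CCACG with 9 bases of any kind between them, and ERSE-II as ATTGGNCCACG. A match to ERSE was present for 4 members (HSPA5, HSP90B1, CALR and XBP1) and to ERSE-II for 3 (HYOU1, SDF2L1 and HERPUD1), so 7 of 10 held 1 of the elements. Among all 35116 RefSeq promoters 0.074% held ERSE and 0.0513% held ERSE-II. Since the elements were already known in promoters of such genes, this contrast describes the members and is no independent finding. PDIA4, DNAJB9 and SEL1L held neither in this window, but each held CCACG, as did 33.5% of all promoters. The matches are written in the orientation of the element, with its fixed letters in capitals.
HSPA5 ERSE, chr9:125241391-125241409, 66 to 48 bases before the start: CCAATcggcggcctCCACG
HSP90B1 ERSE, chr12:103930216-103930234, 194 to 176 bases before the start: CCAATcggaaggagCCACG
HSP90B1 ERSE, chr12:103930321-103930339, 89 to 71 bases before the start: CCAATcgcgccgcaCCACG
CALR ERSE, chr19:12938384-12938402, 225 to 207 bases before the start: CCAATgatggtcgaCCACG
HYOU1 ERSE-II, chr11:119057380-119057390, 185 to 175 bases before the start: ATTGGaCCACG
HYOU1 ERSE-II, chr11:119057274-119057284, 79 to 69 bases before the start: ATTGGaCCACG
SDF2L1 ERSE-II, chr22:21642114-21642124, 188 to 178 bases before the start: ATTGGtCCACG
XBP1 ERSE, chr22:28800603-28800621, 52 to 34 bases before the start: CCAATcgcggagggCCACG
HERPUD1 ERSE-II, chr16:56932025-56932035, 117 to 107 bases before the start: ATTGGgCCACG

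XBP1 has 2 annotated starts, and ERSE lay before the upstream one. HSP90B1 held it at 2 places and HYOU1 held ERSE-II at 2 places. In HYOU1 the upstream ERSE-II overlapped a match to TGACGTGG, a sequence known to bind XBP1 and ATF6, which 0.612% of all promoters held. HERPUD1 also held TTGCATCA, the form in which C/EBP-ATF elements bound by ATF4 are often written. That motif was searched after the HERPUD1 sequence had been seen, it was in 0.772% of all promoters, and no other member held it. Whether any factor bound these sequences was not measured. The promoters of the 2 members that rose (HERPUD1 and SEL1L), of HSPA5 and of DNAJB9 follow. Capitals mark ERSE in HSPA5, TTGCATCA and ERSE-II in HERPUD1, and CCACG or its complement CGTGG in SEL1L and DNAJB9.
HERPUD1 promoter, chr16:56931892-56932141, plus strand: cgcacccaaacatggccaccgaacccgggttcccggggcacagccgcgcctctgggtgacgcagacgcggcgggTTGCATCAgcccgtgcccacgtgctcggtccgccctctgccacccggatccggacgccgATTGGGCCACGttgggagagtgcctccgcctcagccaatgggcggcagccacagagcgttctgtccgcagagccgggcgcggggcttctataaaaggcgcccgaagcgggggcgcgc
SEL1L promoter, chr14:81533854-81534103, minus strand: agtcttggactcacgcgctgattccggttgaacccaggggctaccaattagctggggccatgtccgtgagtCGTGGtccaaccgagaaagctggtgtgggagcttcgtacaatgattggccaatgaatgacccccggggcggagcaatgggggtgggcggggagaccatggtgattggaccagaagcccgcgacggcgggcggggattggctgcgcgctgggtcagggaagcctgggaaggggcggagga
HSPA5 promoter, chr9:125241344-125241593, minus strand: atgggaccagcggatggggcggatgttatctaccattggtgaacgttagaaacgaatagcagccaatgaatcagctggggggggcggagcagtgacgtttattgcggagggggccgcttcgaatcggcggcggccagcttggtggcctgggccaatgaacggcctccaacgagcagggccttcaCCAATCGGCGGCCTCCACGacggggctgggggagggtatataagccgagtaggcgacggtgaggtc
DNAJB9 promoter, chr7:108569624-108569873, plus strand: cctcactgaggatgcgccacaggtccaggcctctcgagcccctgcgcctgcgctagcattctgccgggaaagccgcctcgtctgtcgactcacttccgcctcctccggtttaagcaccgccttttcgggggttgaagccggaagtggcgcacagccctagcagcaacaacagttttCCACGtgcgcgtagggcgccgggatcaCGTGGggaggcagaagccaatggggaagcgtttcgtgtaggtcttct

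The libraries differed in depth between the lines, with 23479051 and 23679869 reads recovered for C4-2B ENZR and 52550452 and 52012696 for LNCaP. The least abundant member in any library, DNAJB9, still had 414 to 1169 reads. MAOA in the knockdown library was at 66.8% of the control level in C4-2B ENZR and at 31.3% in LNCaP. All 10 prostate luminal markers of a fixed list reached 1 CPM in every library, and none of 5 immune markers did. Of 6 fibroblast markers 2 or 3 reached 1 CPM, with a summed level of 47.4 to 63.5 CPM, and of 4 endothelial markers 1 or 2 did. Over genes averaging 10 CPM or more, the median log2 ratio lay at 0.13 in LNCaP and at -0.01 in C4-2B ENZR. LNCaP ratios are therefore also given after centring on that median. The labels' lane-like suffix differs between the lines, so line and lane cannot be told apart, and levels were not tested across the tables, which the authors normalized separately.

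HERPUD1 and SEL1L, both parts of the machinery that takes misfolded proteins out of the ER for degradation, rose over the 2 lines, while the abundant folding chaperones did not pass the test. Over both lines, 2 of 10 members rose and none fell in limma (adjusted p under 0.05), where 4.22% of all 13114 genes tested rose and 1.49% fell. At an unadjusted p under 0.05 the counts were 5 and 0, beside 13.8% of all genes higher and 5.39% lower. With both lines centred, 3 members rose (XBP1 as well) and none fell, and the balance over all genes turned from 554 rising and 195 falling to 578 (4.41%) and 543 (4.14%). On recovered reads, edgeR with the deposited scaling had 2 members rising (HERPUD1 and SEL1L), where 4.45% of all genes rose and 1.56% fell. edgeR with recomputed TMM (the trimmed mean of M-values, a scaling between libraries) had 1 member rising (HERPUD1), where 1.14% of all genes rose and 0.763% fell. DESeq2 likewise had HERPUD1 alone, beside 1.09% rising and 0.744% falling of 12097 genes with an adjusted p, and no member fell in any of these fits. DESeq2 did not call MAOA, the targeted gene, either (adjusted p = 0.364). MAOA fell in limma (mean log2 -1.12, adjusted p = 4.44e-12) and in edgeR with recomputed TMM (0.023). A gene that DESeq2 leaves uncalled may thus still differ. The median of the members' mean log2 ratios was 0.30, beside 0.06 over all genes tested. The lines serve as the replicates in this test, and nearly all of its SE comes from a prior of 276 degrees of freedom pooled over genes. That prior follows abundance. The SE was 0.17 for HSPA5 and 0.19 for HSP90B1 and CALR, but 0.12 for HERPUD1 and SEL1L. HSPA5 did not pass at a mean log2 ratio of 0.36, whereas DNAJC10, a less abundant ER gene, passed at 0.37 (SE 0.12). Passing thus does not by itself separate degradation genes from chaperones.

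Within the lines the members' ratios were higher in LNCaP than in C4-2B ENZR. In C4-2B ENZR the knockdown library was at least 1.5-fold above the control for 1 of 10 members (HERPUD1), against 1.59% of the 13810 genes averaging 1 CPM or more, and no member was 1.5-fold lower, against 0.963%. In LNCaP 4 of 10 were at least 1.5-fold higher (DNAJB9, HERPUD1, SEL1L and HSPA5), against 4.98% of 13787 genes, and none was 1.5-fold lower, against 1.57%. After centring, 2 of the 4 in LNCaP were still past 1.5-fold, DNAJB9 and HERPUD1, beside 2.34% of all genes. The median log2 ratio of the members was 0.11 in C4-2B ENZR, where the median of all genes was 0.00, and 0.41 in LNCaP (0.28 centred), where it was 0.11. The ratio was higher in LNCaP for all 10 members and for 66.7% of all genes tested, and after centring for 8 of 10 members and 44.1% of genes. Other ER genes shared this unevenly. In 7 further lists, described below, the ratio was higher in LNCaP for 84.2% of 120 genes tested (60.8% after centring). Shares ran from 66.7% of isomerases and oxidases (50% centred) to 100% of translocation genes (86.4% centred). Glycan quality control genes had 92.3% (46.2% centred). The PERK-ATF4 arm, a list left out of these 7, had 69.2% with and without centring. This contrast between the lines has no test, with 1 library per group.

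**Figure D1:**
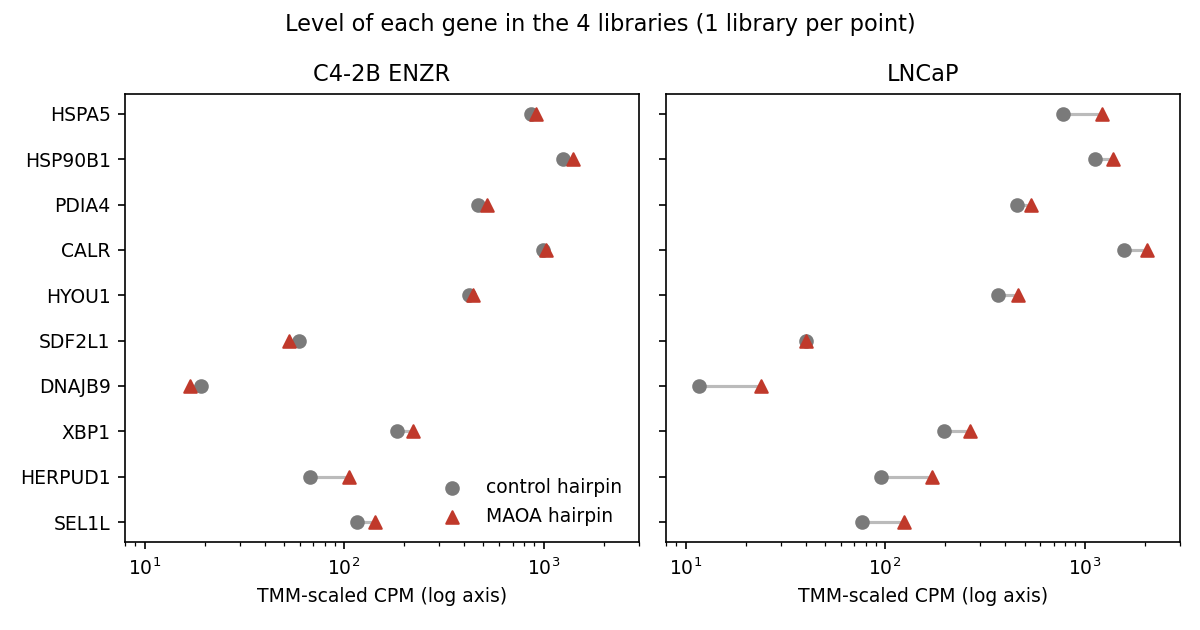
TMM-scaled CPM on a log axis for the 10 genes in the 4 libraries, with the control (grey circle) and the MAOA hairpin (red triangle) of each line joined by a line; each point is 1 library. HERPUD1 is displaced to the right in both panels (67.2 to 106 CPM and 95.7 to 172 CPM), and DNAJB9 and HSPA5 mainly in the LNCaP panel.

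The members' abundance was compared with each other only per length, as CPM divided by the length in kilobases of the longest principal GENCODE v29 transcript, which approximates the transcripts expressed. In the C4-2B ENZR control, CALR was highest at 523 CPM per kb, then HSP90B1 at 438, HSPA5 at 222 and PDIA4 at 162. XBP1 (99.3) and HYOU1 (93.8) came next and were close together, then SDF2L1 at 69.0, HERPUD1 at 22.8, SEL1L at 14.7 and DNAJB9 at 7.06. The order was the same in 3 of the 4 libraries. In the LNCaP knockdown HERPUD1 (58.4 CPM per kb) stood above SDF2L1 (46.4), whereas in the LNCaP control they were at 32.5 and 46.3. No spread between replicates exists to say which neighbours in this order differ.

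HERPUD1, an ER membrane protein with a ubiquitin-like domain that helps assemble the degradation complex, gave the clearest change. The C4-2B ENZR control had 67.2 CPM (1661 reads) and its knockdown 106 CPM (2599 reads). The LNCaP control had 95.7 CPM (5434 reads) and its knockdown 172 CPM (8405 reads). The knockdown library was thus the higher of the pair in both lines. The log2 ratios, taken with a pseudocount of 1 CPM as all ratios here, were 0.65 (95% counting interval 0.56 to 0.74, exact Clopper-Pearson without the pseudocount) and 0.84 (0.80 to 0.89; 0.70 centred). These intervals cover counting error only. Over both lines HERPUD1 rose by a mean log2 of 0.74 (SE 0.12, limma adjusted p = 1.44e-06), and it was also called by edgeR with either scaling (adjusted p = 2.92e-06 deposited, 0.00759 recomputed) and by DESeq2 (5.16e-05).

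SEL1L, the adaptor that feeds substrates to the HRD1 ubiquitin ligase, had 116 CPM with the control hairpin and 144 CPM with the MAOA hairpin in C4-2B ENZR, and 76.8 against 124 CPM in LNCaP. It was higher with the MAOA hairpin in both lines, by less in C4-2B ENZR. The log2 ratios were 0.30 (interval 0.23 to 0.37) and 0.69 (0.64 to 0.75; 0.55 centred). SEL1L rose in limma (mean log2 0.49, SE 0.12, adjusted p = 0.00429), and in edgeR with the deposited scaling (0.0055), but not in edgeR with recomputed TMM (0.0577) or DESeq2 (0.063). SYVN1, the gene of the HRD1 ligase itself, named after its values were seen, had 68.3 CPM in the control against 69.8 CPM in the knockdown of C4-2B ENZR, and 91.1 against 119 CPM in LNCaP (limma adjusted p = 0.378).

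XBP1, the transcription factor whose mRNA is spliced by IRE1, had 184 CPM in the control against 221 CPM in the knockdown of C4-2B ENZR (log2 ratio 0.27, interval 0.21 to 0.33). In LNCaP the pair was 196 against 267 CPM (0.44, interval 0.41 to 0.48; 0.31 centred). It was higher in both knockdown libraries but did not pass (mean log2 0.35, limma adjusted p = 0.0837). With both lines centred on their median it passed (mean 0.29, adjusted p = 0.042), and in edgeR with recomputed TMM it did not (0.13). The tables sum the spliced and unspliced forms, so splicing by IRE1 was not measured.

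DNAJB9, the ER J-domain co-chaperone ERdj4 that acts on BiP and IRE1, had ratios of opposite sign in the lines. In C4-2B ENZR the control had 19.2 CPM (474 reads) and the knockdown 16.8 CPM (414 reads), where the interval of the log2 ratio of -0.18 reached from -0.38 to 0.01. In LNCaP the pair was 11.6 CPM (661 reads) against 23.9 CPM (1169 reads), a log2 ratio of 0.98 (0.90 to 1.18; 0.84 centred), the highest of the members in that line. It did not pass over both lines (mean log2 0.40, limma adjusted p = 0.0929). Exons of DNAJB9 overlap those of THAP5 and PNPLA8 on the other strand, with 5.03% of its 50-base words found in other genes, and the sources used here do not say whether the counting used strand. THAP5 had log2 ratios of -0.14 in C4-2B ENZR and 0.48 in LNCaP, and PNPLA8 of 0.25 and 0.44. Their part in the DNAJB9 value was not tested.

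**Figure D2:**
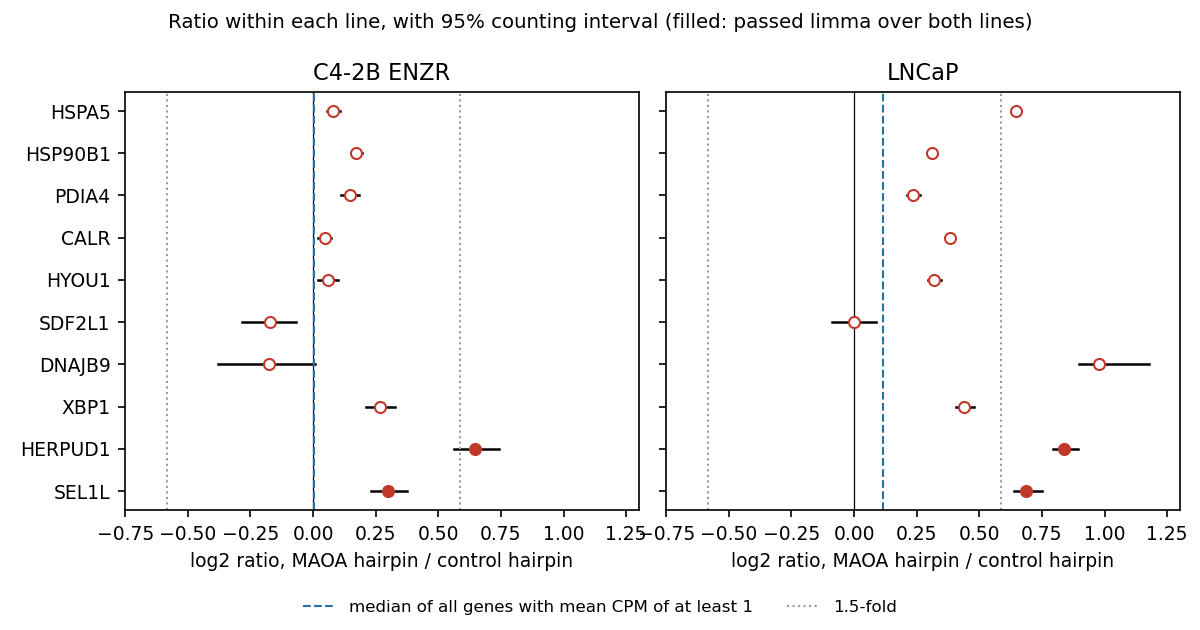
Log2 ratio of the MAOA hairpin library to the control library for each gene in each line (circles, filled for the 2 genes that passed limma over both lines), with 95% counting intervals (bars, computed without the pseudocount), the median of all genes (dashed) and 1.5-fold (dotted). HERPUD1 is past 1.5-fold in both panels, DNAJB9, SEL1L and HSPA5 are past it in LNCaP only, and no gene is 1.5-fold lower.

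The luminal chaperones showed small ratios in C4-2B ENZR. HSPA5, which encodes BiP, the Hsp70 of the ER and the usual marker of an unfolded protein response, had 869 CPM in the control against 919 CPM in the knockdown there, a log2 ratio of 0.08 (0.05 to 0.11). In LNCaP the pair was 777 against 1217 CPM, a ratio of 0.65 (0.63 to 0.67; 0.51 centred). The LNCaP pair was thus more than 1.5-fold apart while the C4-2B ENZR pair was nearly level. HSPA5 did not pass over both lines (mean log2 0.36, SE 0.17, limma adjusted p = 0.214; 0.0545 when both lines were centred).

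HSP90B1, the ER Hsp90 known as GRP94, had 1251 against 1409 CPM in the C4-2B ENZR pair and 1122 against 1392 CPM in the LNCaP pair (log2 ratios 0.17 and 0.31). HYOU1, a large Hsp70 relative that exchanges nucleotide on BiP, had 425 against 443 CPM and 369 against 461 CPM (0.06 and 0.32). Both were higher in each knockdown library by less than 1.5-fold. CALR, the calcium-binding lectin chaperone calreticulin, had 996 against 1028 CPM in the C4-2B ENZR pair and 1574 against 2053 CPM in the LNCaP pair (0.05 and 0.38). PDIA4, the disulphide isomerase ERp72, had 471 against 521 CPM and 459 against 540 CPM (0.15 and 0.24). After centring, the LNCaP ratios of these 4 genes were 0.10 to 0.25, and none passed limma (adjusted p from 0.511 to 0.591).

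SDF2L1, which keeps clients of BiP from aggregating together with ER J proteins, was the member with a mean ratio below 0. The C4-2B ENZR control had 59.6 CPM and the knockdown 52.8 CPM (log2 ratio -0.17, interval -0.29 to -0.07) and both LNCaP libraries had 40.1 CPM (0.00, interval -0.09 to 0.09; -0.13 centred). Its limma adjusted p was 0.784. Of the members' 50-base words, 12.8% of those of HYOU1, 9.71% of CALR, 9.59% of HSPA5 and 8.12% of HSP90B1 occur in other annotated genes, which for CALR and HYOU1 means 1 gene each on the other strand. For SDF2L1, PDIA4, XBP1 and SEL1L none did, and for HERPUD1 0.311% did.

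The ratios of members with and without these elements overlapped. The 4 members with ERSE had mean log2 ratios from 0.22 (CALR) to 0.36 (HSPA5). The 3 with ERSE-II reached from -0.09 (SDF2L1) to 0.74 (HERPUD1), so they held both the lowest and the highest member. The 3 with neither lay at 0.19 (PDIA4), 0.40 (DNAJB9) and 0.49 (SEL1L). Of 116 other ER and stress genes with a promoter entry 4 held ERSE or ERSE-II, namely CANX, CRELD2, PDIA6 and ERO1B (listed in the tables as ERO1LB), and their ratios likewise spread over both signs. CANX, the membrane-bound lectin chaperone calnexin, had a mean log2 ratio of 0.32 (limma adjusted p = 0.215) and CRELD2 one of 0.10 (0.726), whereas PDIA6 fell and ERO1LB rose.

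**Figure D3:**
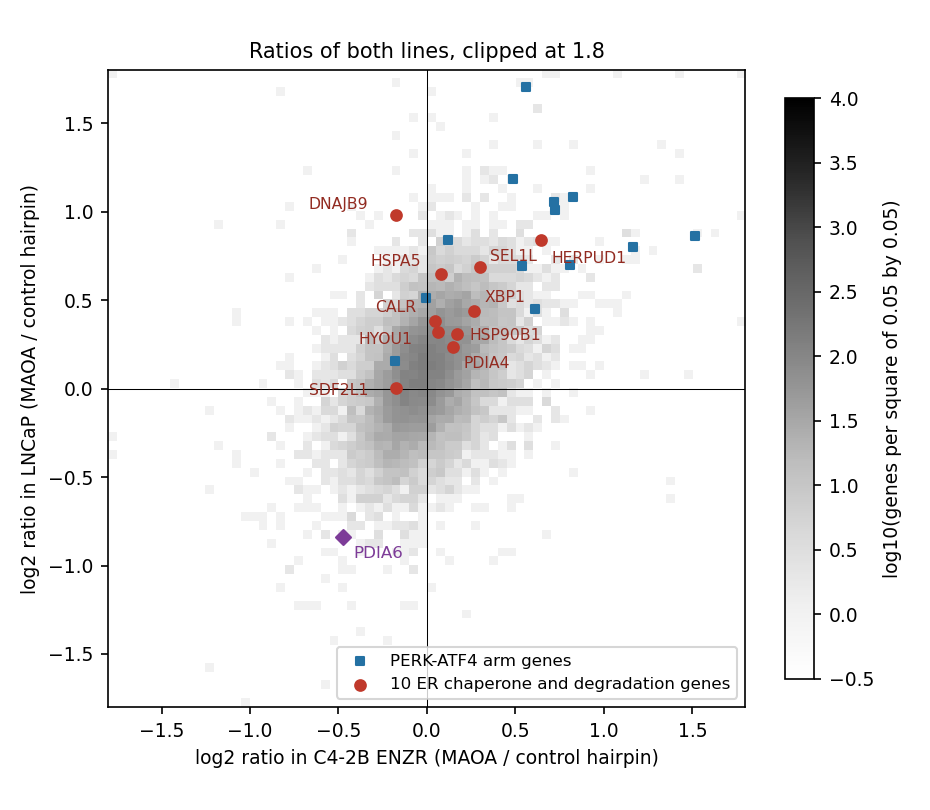
Log2 ratio in C4-2B ENZR (x) against that in LNCaP (y) for the 10 genes (red circles), the PERK-ATF4 arm genes (blue squares), PDIA6 (purple diamond) and all 13114 genes tested (grey squares, darker for more genes, on a log10 colour scale), with values beyond 1.8 drawn at the edge. HERPUD1 lies among the PERK-ATF4 arm genes at the upper right, 8 of the 10 genes lie above 0 on both axes, and PDIA6 lies at the lower left. Of all genes tested, 50.1% lie above 0 in C4-2B ENZR and 66.8% in LNCaP (46.5% after centring). Of the 10 genes, 8 and 10 do (9 in LNCaP after centring).

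The other genes of the pathway were read from 8 lists with 135 genes, of which 134 matched a symbol or synonym in the tables. Among them 16 rose and 1 fell in limma, and 10 of the 16 belonged to the PERK-ATF4 arm. In the other 7 lists 6 of 120 tested genes rose and 1 fell, shares near the 4.22% and 1.49% of all genes, so those counts do not set these lists apart. At an unadjusted p under 0.05 these 7 lists had 28 of 120 genes higher and 3 lower, beside 13.8% higher and 5.39% lower of all genes tested. The same shares are the background for the unadjusted counts of each list below. Of 13 genes of that arm 10 rose and none fell (12 and 0 at an unadjusted p under 0.05; 11 and 0 in edgeR with the deposited scaling, 9 and 0 with recomputed TMM, 8 and 0 in DESeq2), with a median mean log2 ratio of 0.83. ATF4 itself had a mean log2 ratio of 0.61 (limma adjusted p = 0.0031). The largest were CHAC1, which degrades glutathione (1.19), DDIT3, the stress transcription factor CHOP (1.13), and ASNS, asparagine synthetase (0.98). DDIT3 did not pass in DESeq2 (adjusted p = 0.337). EIF2S1, which encodes the subunit that PERK phosphorylates, PPP1R15A and PPP1R15B did not pass. The ATF4 genes were known to be high in these libraries when the list was made, so their count is no independent evidence of direction. The list carries the name of its pathway only. PERK activity was not measured, ATF4 is also raised by amino acid shortage, and which signal raised these genes was not tested.

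The sensors gave smaller values. ERN1, the gene of IRE1, had 16.0 against 22.5 CPM in the C4-2B ENZR pair and 26.9 against 39.1 CPM in the LNCaP pair and rose in limma (mean log2 0.49, adjusted p = 0.0134). It passed in edgeR with the deposited scaling (0.00916), but not in edgeR with recomputed TMM (0.0751) or in DESeq2 (0.2). ATF6 had 63.9 against 69.3 CPM and 49.9 against 74.4 CPM and did not pass (limma adjusted p = 0.0854). EIF2AK3, the gene of PERK, had 35.2 against 39.4 CPM and 31.5 against 48.3 CPM (0.0606). Of 12 sensor and processing genes tested, ERN1 was the 1 that rose and none fell (5 and 0 at an unadjusted p under 0.05; 2 and 0 in edgeR with the deposited scaling, 0 and 0 with recomputed TMM and in DESeq2).

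PDIA6, the disulphide isomerase that binds BiP and damps IRE1, was the 1 gene of the 8 lists to fall. The C4-2B ENZR pair had 323 CPM in the control against 232 CPM in the knockdown, and the LNCaP pair 271 against 151 CPM. Both knockdown libraries were lower, with log2 ratios of -0.48 and -0.84 (-0.97 centred). It fell by 0.66 on the log2 scale in limma (SE 0.13, adjusted p = 0.000102) and was called by edgeR with either scaling (adjusted p = 0.000322 deposited, 0.0181 recomputed) and by DESeq2 (0.000114). Of 18 isomerases and oxidases, ERO1LB, which encodes an oxidase that drives disulphide formation, was the other gene called and rose (mean log2 0.54, limma adjusted p = 0.0107). ERO1LB passed in edgeR with the deposited scaling (0.0063), but not with recomputed TMM (0.0825) or in DESeq2 (0.224).

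Of 18 other chaperones and co-chaperones DNAJC10, a reductase of the ER, rose (mean log2 0.37, limma adjusted p = 0.0493) and none fell (4 and 0 at an unadjusted p under 0.05; 0 and 0 in edgeR with either scaling and in DESeq2). Of 25 other degradation genes tested UBAC2 rose (0.38, limma adjusted p = 0.0441) and none fell (2 and 2 unadjusted; 2 and 0 in edgeR with the deposited scaling, 0 and 0 with recomputed TMM and in DESeq2). These limma counts are near the 4.22% and 1.49% of all genes that rose and fell, so they do not set the 2 lists apart. With both lines centred, 1 of the 25 degradation genes rose and 3 fell, beside 4.41% and 4.14% of all genes. The median log2 ratio of the degradation genes was -0.07 in C4-2B ENZR, with 12 of 25 above 0 beside 50.1% of all genes tested. In LNCaP their median was 0.15 (0.02 centred). Of 12 ER calcium genes the release channel gene ITPR1 (0.50) and the calcium-binding protein gene CALU (0.48) rose, with limma adjusted p = 0.01 and 0.0108. Both passed in edgeR with the deposited scaling (0.00645 and 0.0176). Neither passed in edgeR with recomputed TMM (0.075 and 0.083) or in DESeq2 (0.16 and 0.0793). None of 13 glycan quality control genes and none of 22 translocation genes passed limma, edgeR or DESeq2. At an unadjusted limma p under 0.05, 6 and 3 of them were higher and none lower. Their most abundant members, GANAB (mean log2 0.18) and SEC61A1 (0.13), had small ratios and were among those not called. Medians of the 2 lists were 0.25 and 0.12, beside 0.06 for all genes.

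**Figure D4:**
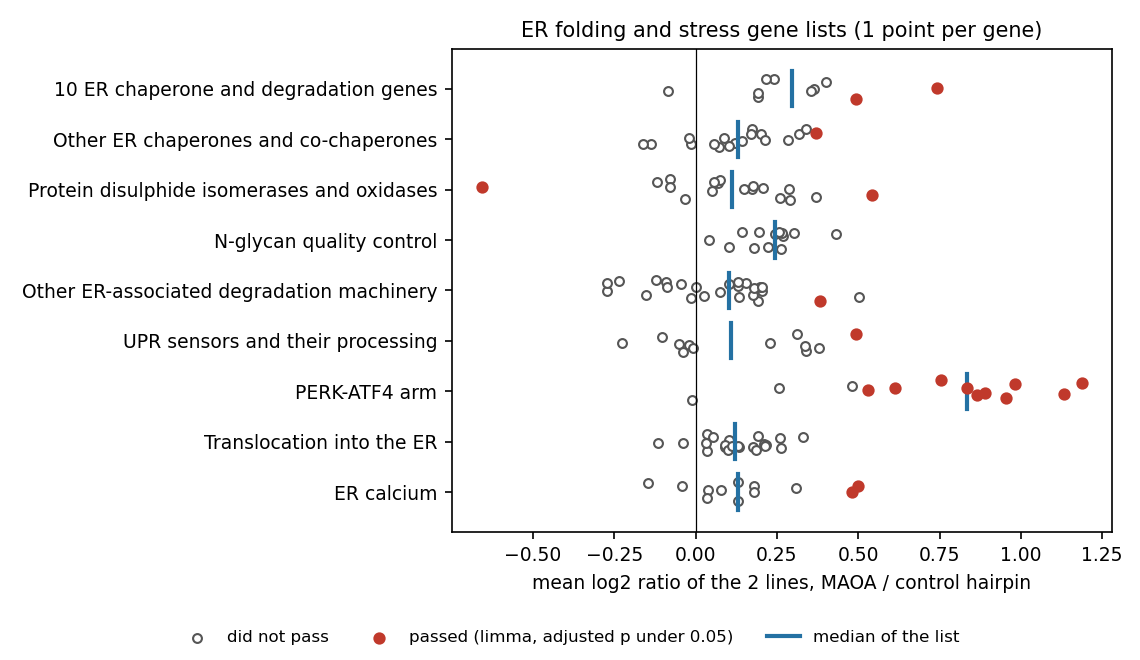
Mean log2 ratio of the 2 lines for every tested gene of the 10 ER chaperone and degradation genes and of the 8 other lists (points, filled red where limma passed), with the median of each list (blue bar). The PERK-ATF4 arm lies to the right with 10 filled points, HERPUD1 and SEL1L are the 2 filled points of the first row, and PDIA6 is the filled point at the far left.

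Among 10714 genes averaging 5 CPM or more in each table, those whose pair of log2 ratios lay nearest to the pair of HERPUD1 (0.65 in C4-2B ENZR and 0.84 in LNCaP) were LIF, at 0.65 and 0.84, GTPBP2, at 0.66 and 0.85, and FUT1, at 0.63 and 0.83. The nearest to SEL1L (0.30 and 0.69) were ITPR1, at 0.31 and 0.69, TRMT11, at 0.28 and 0.69, and NNT, at 0.32 and 0.68. Likeness was the Euclidean distance over 2 ratios, 1 per line, and describes only these 4 libraries.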

How the data were processed

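RNA sequencing (single reads of 50 nt, total RNA) was analysed for 4 libraries, 1 per group. Per the submitters' processing notes the genome was hg19, and the tools were RSEM 1.2.15, Bowtie2 2.1.0 and edgeR; the annotation, filters and strand setting were not given in the sources used here. For each line 1 table of CPM scaled by TMM was deposited. In LNCaP the deposited knockdown column sums to 1064500, so that table was handled as a signal on the CPM scale. All values (100%) were whole multiples of 1 read within 0.01 read, with a wider tolerance for large counts, so read counts were recovered. The counting intervals do not cover how reads shared between genes were assigned. The deposited log2 scaling of knockdown over control, relative to read totals, was 0.02 in C4-2B ENZR (recomputed TMM 0.02) and 0.20 in LNCaP (recomputed 0.08).

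Ratios were log2((knockdown CPM + 1)/(control CPM + 1)) within a table, which understates changes of low genes. limma 3.58.1 (R 4.3.3; trended prior, Benjamini-Hochberg adjustment at 0.05) was fitted to the pair of ratios of each of 13114 genes averaging 1 CPM or more in each table, leaving 1 residual degree of freedom. Nothing in the labels shows separate cultures within a group, and no test was made within a line. Alternatives were pseudocounts of 0.1 and 5, filters, centring, rescaling, edgeR 4.0.16 and DESeq2 1.42.0 on recovered reads with line as a term.

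The members and the lists were chosen with earlier results of these data known. Named are all members, the called genes of each list (at most the 3 largest each way), the most abundant gene of a list with no call, ATF4, DDIT3 and the sensors, the 3 genes nearest to each called member, and genes that hold a promoter element. SYVN1, EIF2S1, PPP1R15A and PPP1R15B were named after their values were seen. Of the listed genes 1 had no matching symbol, and 7 were matched by synonym. Transcript lengths and shared 50-base words came from GENCODE v29 (GRCh38), and promoters from RefSeq (GRCh38.p14), not from the authors' annotation.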

Additional observations from a re-analysis of the deposited data

Results flagged for a closer look

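For 2 members the log2 ratio had opposite signs in the lines, a difference that was not tested. DNAJB9 was lower in the C4-2B ENZR knockdown and higher in the LNCaP knockdown (-0.18 and 0.98), so that the ratios differed by 1.16. SDF2L1 was lower in C4-2B ENZR (-0.17) and level in LNCaP (0.00), a difference of 0.17. After centring the LNCaP ratio of SDF2L1 was -0.13, so the opposite sign ended, while that of DNAJB9 was 0.84. The counting interval of DNAJB9 in C4-2B ENZR and that of SDF2L1 in LNCaP included 0.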

How the results depend on the processing

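The count of members that rose over both lines (2) became 1 in edgeR with recomputed TMM and 1 in DESeq2, where SEL1L was lost, and 0 without a filter on low values, where the limma prior fell from 276 to 0.733 degrees of freedom. It stayed between 2 and 3 in the other alternatives run, and no member fell in any of them. Without a filter the adjusted p of HERPUD1 was 0.649 and that of SEL1L 0.662. In the 8 other lists the 16 genes that rose became 18 in edgeR with the deposited scaling, 9 in edgeR with recomputed TMM, 8 in DESeq2 and 0 without a filter, and the 1 that fell became 4 after centring, 4 after rescaling each library to the same sum and 0 without a filter. The 4 members 1.5-fold higher in LNCaP became 2 after centring, 2 after rescaling and 0 at 2-fold, and the 1 in C4-2B ENZR became 0 at 2-fold. The cause of these shifts between tools was not tested. The members' median log2 ratio stayed above 0 in every alternative run (0.09 to 0.12 in C4-2B ENZR and 0.21 to 0.41 in LNCaP). No replicate could be left out, since each group holds 1 library. All fits pair the libraries within a line, and the labels give no replicate numbers for any other pairing. The member with the fewest reads, DNAJB9 (414), is also the 1 whose C4-2B ENZR ratio has a sign that counting error leaves undecided.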
